A study of Mus musculus with 4 samples.

Results

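The T cell receptor complex and its co-receptors were followed through 9 genes of mouse subcutaneous white fat: Cd3d, Cd3e, Cd3g, Cd247, Cd4, Cd8a, Cd8b1, Zap70 and Cd28. They were chosen by name, with earlier results of these data known. They are the rows of an expression table of 21899 protein-coding rows whose gene symbol equals one of these names. Each name matched 1 row. The table came from RNA sequencing of 4 libraries, 2 labelled as miR-203 inhibitor and 2 labelled as negative control, and each library was a pool of RNA from 3 animals. The series title names a network of cAMP, microRNA-203 and IFN-gamma that acts on browning and glucose tolerance. For neither group do the sources used here give strain, sex, age, genotype, dose, route or duration, or say what the negative control consisted of. Where nothing says that the pools of a group were prepared independently, a p-value measures only the spread between these pools.

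A T cell recognises antigen through a pair of receptor chains that carry no signalling part of their own. The receptor is therefore held in a complex with the CD3 gamma, delta and epsilon chains, encoded by Cd3g, Cd3d and Cd3e, and with a dimer of the zeta chain, encoded by Cd247. The co-receptors CD4 and CD8 bind class II and class I MHC molecules and bring the kinase Lck to the complex, Lck phosphorylates the tails of the CD3 and zeta chains, and the kinase ZAP-70 docks there. CD28 gives the second, co-stimulatory signal. In white fat T cells are a minority beside adipocytes, macrophages and vessel cells, and subcutaneous depots can also enclose lymph nodes, which are rich in T and B cells. The genes for the receptor chains themselves (Trac, Trbc1, Trbc2, Trdc and the gamma constant genes) were not analysed here, since none of 7 such names was found among the rows used.

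Values are FPKM as the authors deposited them, fragments scaled to transcript length and library total, so a level can be compared between genes but the read number behind it is unknown. By the most common ratio of low values, depth relative to control 1 was 0.908 to 1.06 in the other libraries, and 15373 to 15587 rows were above 0. Mitochondrially encoded genes took 10.2% to 17.5% of the summed FPKM. Adipocyte markers were abundant in every library, with Adipoq between 996.6 and 1303 FPKM and Fabp4 between 9640 and 12720 FPKM. Control 2 stood apart from the other 3 libraries in many T cell genes, in B cell markers and in some lymph node genes. The 11 B cell markers summed to 259.4 FPKM in control 1, 110.7 in inhibitor 1, 107.7 in inhibitor 2 and 6.18 in control 2, and the lymph node chemokine Ccl21a was at 127.0, 47.8, 74.4 and 0.237 FPKM in the same order. The 9 genes and the lists that follow their libraries are therefore compared with both controls and with each control alone. The sources used here do not say whether lymph nodes were removed from the tissue.

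The 3 CD3 genes lie side by side within 40056 bases of chromosome 9 of GRCm38. Cd3g (ENSMUSG00000002033, 44969572 to 44980431, minus strand) and Cd3d (ENSMUSG00000032094, 44981786 to 44987339, plus strand) are transcribed away from each other, with starts 1355 bases apart. Cd3e (ENSMUSG00000032093) lies at 44998740 to 45009627 on the minus strand. The sequences upstream of their starts are shown because these neighbouring genes had parallel levels over the libraries. Such levels were not particular to neighbours, since Cd8a and Cd4, on another chromosome, followed the mean CD3 profile as closely. Each is the 250 bases before the RefSeq start (GRCm38.p6), written 5′ to 3′ on the strand of the gene, with capitals on every GGAA or its reverse complement TTCC, the core that ETS-family factors bind.
Cd3g, chr9:44980432-44980681, minus strand: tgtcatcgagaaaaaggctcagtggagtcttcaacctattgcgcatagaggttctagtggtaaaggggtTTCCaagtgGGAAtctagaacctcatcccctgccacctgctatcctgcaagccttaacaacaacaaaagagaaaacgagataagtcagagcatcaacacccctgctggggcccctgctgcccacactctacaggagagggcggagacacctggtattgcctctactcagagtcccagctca
Cd3d, chr9:44981536-44981785, plus strand: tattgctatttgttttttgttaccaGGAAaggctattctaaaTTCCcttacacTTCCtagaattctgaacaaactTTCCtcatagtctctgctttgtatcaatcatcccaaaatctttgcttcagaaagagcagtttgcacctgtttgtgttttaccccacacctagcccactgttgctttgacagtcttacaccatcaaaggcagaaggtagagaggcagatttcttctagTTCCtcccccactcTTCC
Cd3e, chr9:45009612-45009861, minus strand: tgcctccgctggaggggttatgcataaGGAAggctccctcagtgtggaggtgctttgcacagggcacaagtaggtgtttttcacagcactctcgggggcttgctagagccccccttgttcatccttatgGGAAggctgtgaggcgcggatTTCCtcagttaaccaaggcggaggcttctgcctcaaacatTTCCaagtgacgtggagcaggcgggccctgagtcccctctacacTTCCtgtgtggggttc

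The core occurred at 2 places in the Cd3g window, 6 in the Cd3d window and 5 in the Cd3e window. It is a short motif that 93.5% of 32851 promoter windows of this length hold, so its presence does not set these genes apart. The windows found for the 9 genes numbered 8, for Cd3d, Cd3e, Cd3g, Cd247, Cd8a and 3 starts of Zap70, and 7 of the 8 held the core. A RUNX motif (TGTGGT or its reverse complement ACCACA) was in 1 of the 8, at a start of Zap70, against 14.1% of all windows. A GATA motif (AGATAA or TTATCT) was in 1, that of Cd3g, against 9.99%, and a TATA box (TATAAA or TTTATA) was in 0, against 12.4%. Each motif was searched on both strands and counted on its own, whether or not its matches overlap those of another. Cd4, Cd8b1 and Cd28 had no window.

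All 3 CD3 genes were lowest in control 2. Cd3g, the gamma chain, was at 16.3 FPKM in control 1, 2.77 in control 2, 14.3 in inhibitor 1 and 20.4 in inhibitor 2. Cd3e, the epsilon chain that pairs with both gamma and delta, was at 14.8 FPKM in control 1, 3.42 in control 2, 10.01 in inhibitor 1 and 13.4 in inhibitor 2. Cd3d, the delta chain, was at 6.79 FPKM in control 1, 1.33 in control 2, 5.83 in inhibitor 1 and 8.68 in inhibitor 2. The inhibitor values of these genes lay well above control 2 and around control 1, so the groups overlapped. In a bulk tissue such values cannot tell fewer T cells from less of these transcripts per T cell.

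Over both controls the CD3 differences were small against the spread between the control pools. The mean of Cd3g was 9.53 ± 9.56 FPKM over the controls and 17.3 ± 4.28 over the inhibitor libraries (SD, n = 2). Its log2 fold change was 1.16 ± 0.70 (SE, 95% interval -0.61 to 2.93, limma adjusted p = 0.427). For Cd3d it was 0.93 ± 0.57 (limma adjusted p = 0.437) and for Cd3e 0.59 ± 0.59 (adjusted p = 0.636). These fold changes are on the log2(FPKM + 1) scale, which understates the change of genes with low values. Cd3e overlaps 2 noncoding genes, Gm48720 on its own strand and Gm48719 on the other. The library kit was directional, but the sources used here do not say whether fragments were assigned by strand.

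Cd247 (ENSMUSG00000005763, chromosome 1 at 165788681 to 165877277, plus strand) encodes the zeta chain, which carries most of the phosphorylation sites of the complex and also serves activating receptors of natural killer (NK) cells. It was at 10.4 FPKM in control 1, 2.05 in control 2, 6.23 in inhibitor 1 and 8.22 in inhibitor 2. Unlike Cd3g and Cd3d, both inhibitor values stayed under control 1. The log2 fold change over both controls was 0.47 ± 0.61 (SE, 95% interval -1.07 to 2.01, limma adjusted p = 0.717). Cd247 overlaps Pou2f1 on the opposite strand over 12124 bases, and Pou2f1 was at 1.19 to 1.63 FPKM in the 4 libraries. The library kit was directional, but the sources used here do not say whether fragments were assigned by strand. Fragments from the shared bases may therefore not have been told apart.

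The co-receptors were also lowest in control 2. Cd4 (ENSMUSG00000023274, chromosome 6 at 124864692 to 124888221, minus strand) marks helper and regulatory T cells. It was at 8.71 FPKM in control 1, 2.14 in control 2, 6.66 in inhibitor 1 and 9.67 in inhibitor 2. CD8 is a dimer on cytotoxic T cells, and its genes Cd8b1 (71322788 to 71337494) and Cd8a (71373427 to 71379173) are neighbours on the plus strand of chromosome 6, 35932 bases apart. Cd8a, whose alpha chain is also made by some dendritic cells, was at 10.2 FPKM in control 1, 1.61 in control 2, 6.08 in inhibitor 1 and 10.6 in inhibitor 2. Cd8b1, whose beta chain is largely restricted to T cells, was at 9.66 FPKM in control 1, 1.07 in control 2, 6.59 in inhibitor 1 and 10.5 in inhibitor 2. Inhibitor 2 exceeded control 1 for all 3 co-receptor genes, while inhibitor 1 lay under it. Their log2 fold changes over both controls were 0.71 ± 0.54 for Cd4, 0.74 ± 0.70 for Cd8a and 0.99 ± 0.76 for Cd8b1 (SE, limma adjusted p = 0.524, 0.612 and 0.531).

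Zap70 (ENSMUSG00000026117, chromosome 1 at 36761798 to 36782818, plus strand), the kinase that relays the signal and is also used by NK cells, was at 6.21 FPKM in control 1, 1.61 in control 2, 3.94 in inhibitor 1 and 7.24 in inhibitor 2. Cd28 (ENSMUSG00000026012, chromosome 1 at 60716800 to 60773359, plus strand), the co-stimulatory receptor, was at 1.99 FPKM in control 1, 0.707 in control 2, 1.96 in inhibitor 1 and 3.09 in inhibitor 2. Cd28 was the lowest of the 9 genes in every library. Its inhibitor 1 value was 98.2% of control 1, while inhibitor 2 was 1.55 times control 1. Log2 fold changes over both controls were 0.56 ± 0.53 for Zap70 and 0.62 ± 0.34 for Cd28 (SE, limma adjusted p = 0.614 and 0.385).

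**Figure D1:**
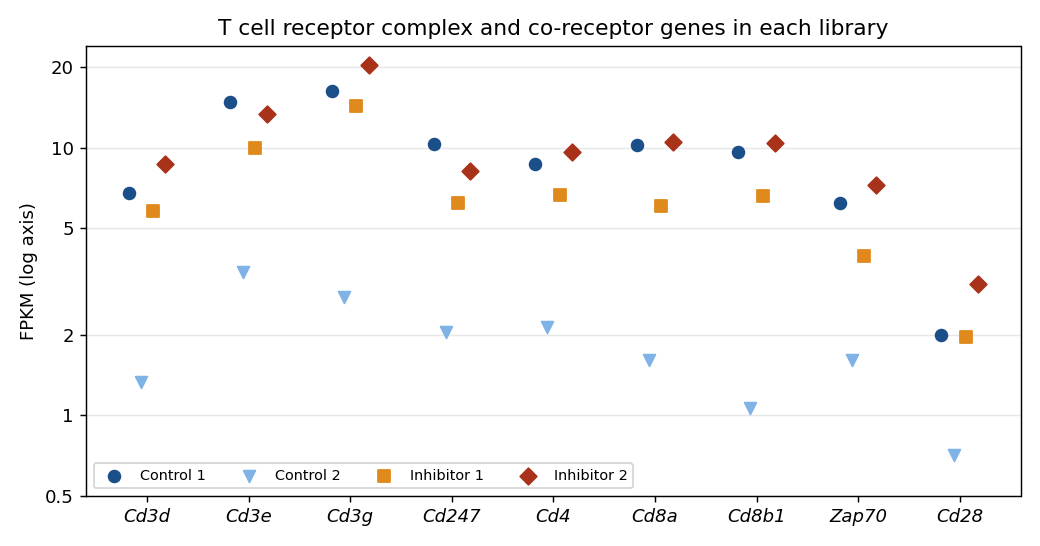
FPKM of each of the 9 genes (log axis) in the 4 libraries, with 1 point per library and no averaging. Control 2 (triangles) is the lowest point for every gene, from 0.707 FPKM for Cd28 to 3.42 for Cd3e. Control 1 and the inhibitor libraries lie above it, with inhibitor 2 above inhibitor 1 for every gene.

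In order of mean level over the 4 libraries the genes ran from Cd3g (13.4 FPKM) and Cd3e (10.4) through Cd8a (7.12), Cd8b1 (6.95), Cd4 (6.80), Cd247 (6.72) and Cd3d (5.66) to Zap70 (4.75) and Cd28 (1.94). The order was not fixed in its upper and middle part. Cd3g led in 3 libraries and Cd3e in control 2, and Cd247 moved from the third place in control 1 to the seventh in inhibitor 2. Cd8a, Cd8b1, Cd4 and Cd247 differed in mean by less than the spread between libraries of a group.

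With both controls in the comparison, 0 of the 9 genes passed an adjusted p of 0.05 in limma, against 3.48% of the 12345 rows tested, and 0 had an unadjusted p under 0.05, with and without a variance trend. All 9 were tested, since each averaged 1 FPKM or more over the 4 libraries. Over all rows 397 were higher and 33 lower, a split that became 267 and 64 with upper quartile scaling and 322 and 86 with quantile normalization. Fold changes of the 9 genes were positive in 9 of 9, from 0.47 to 1.16 on the log2(FPKM + 1) scale, with a median of 0.71 against 0.07 over all rows tested. Upper quartile scaling moved the median over all rows to -0.04 and that of the 9 genes to 0.61, so the median stood 0.64 to 0.65 above that of all rows under both scalings. Both inhibitor values lay above both control values in 0 of the 9 genes, against 33.1% of rows. The 9 genes are read from the same 4 libraries and are not replicates of one another.

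The controls differed from each other more than the inhibitor libraries differed from control 1. Control 1 was at least 2-fold above control 2 in 9 of 9 genes, against 4.10% of rows tested, with ratios of FPKM from 2.82 for Cd28 to 9.05 for Cd8b1. Control 2 was the lowest library in 9 of 9, against 37.4% of rows. Both inhibitor libraries were at least 2-fold above control 2 in 9 of 9 genes, against 4.94% of rows. As the genes were chosen with earlier results of these data known, these shares are descriptions and no test. Against control 2 the ratios ran from 2.45 (Zap70) to 6.17 (Cd8b1) in inhibitor 1 and from 3.91 (Cd3e) to 9.80 (Cd8b1) in inhibitor 2.

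Against control 1 no common direction was seen. Inhibitor 1 was under control 1 in 9 of 9 genes, at 59.4% (Cd8a) to 98.2% (Cd28) of its FPKM. Inhibitor 2 was above control 1 in 7 of 9, at up to 155.0% (Cd28), and under it for Cd3e (90.4%) and Cd247 (79.2%). For these 2 genes both inhibitor values lay between the controls, a pattern of 9.36% of rows tested. The inhibitor libraries also differed between themselves: inhibitor 2 was above inhibitor 1 in 9 of 9 genes, by 1.32 times (Cd247) to 1.84 times (Zap70), against 52.4% of rows.

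**Figure D2:**
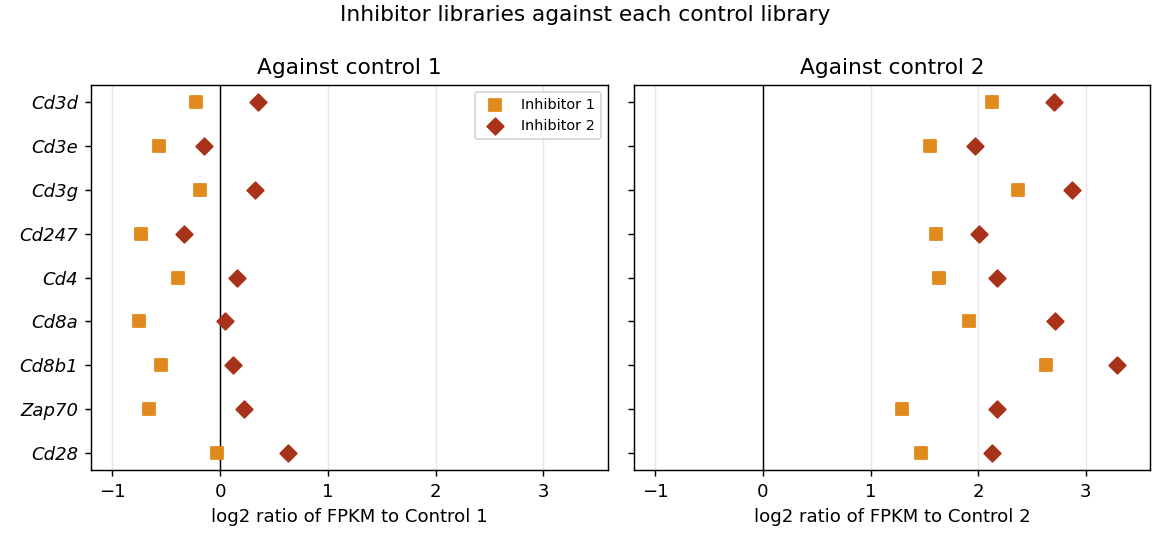
Log2 ratio of FPKM of inhibitor 1 (squares) and inhibitor 2 (diamonds) to control 1 (left) and to control 2 (right) for the 9 genes, with the vertical line at no difference. Points straddle the line on the left, with inhibitor 1 below control 1 in 9 of 9 genes, and lie to the right of it in the right panel, where the lowest ratio is 2.45.

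The test gave different pictures with 1 control left out, where the lone control is assumed to vary as the inhibitor libraries do. The 9 genes did not meet that assumption. They differed 2.82- to 9.05-fold between the controls, but 1.32- to 1.84-fold between the inhibitor libraries. The p-values and counts of these fits therefore rest on too small a spread and are given as descriptions only. Against control 2 alone, 7 of 9 genes were higher in the inhibitor libraries (limma adjusted p under 0.05), against 5.57% of rows tested, and the median log2 fold change was 1.52. The largest log2 fold changes there were those of Cd3g (2.26) and Cd8b1 (2.17), and the smallest were those of Zap70 (1.29) and Cd28 (1.03). Against control 1 alone, 0 of 9 genes passed in limma, against 3.73% of rows, 0 had an unadjusted p under 0.05, and the median was -0.18. There the fold changes ran from -0.48 ± 0.21 for Cd247 (adjusted p = 0.329) to 0.22 ± 0.28 for Cd28 (adjusted p = 0.753), and 3 of 9 were positive. The sign of the fold change thus differed between the controls for 6 of the 9 genes. Against control 1 alone these 6 ran from -0.48 ± 0.21 (Cd247) to -0.10 ± 0.24 (Cd4, SE), so their signs are descriptions only.

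Ratios between members within a library, which a factor common to all genes of that library cannot move, were compared next. The ratio of Cd8a to Cd4 was 1.17 in control 1, 0.752 in control 2, 0.913 in inhibitor 1 and 1.09 in inhibitor 2, so the inhibitor values lay between the controls. The ratio of Cd8a to Cd8b1 was 1.06 in control 1, 1.51 in control 2, 0.923 in inhibitor 1 and 1.01 in inhibitor 2. Its control 2 value rests on 1.07 FPKM of Cd8b1. Cd247, set against the geometric mean of Cd3d, Cd3e and Cd3g, was at 0.881 in control 1 and 0.879 in control 2, and at 0.662 in inhibitor 1 and 0.617 in inhibitor 2.

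The Cd247 ratio was thus nearly equal in the controls, although these differed 5.07-fold in Cd247 itself, and lower in both inhibitor libraries, by a mean log2 difference of -0.46. Against the same mean Zap70 was at 0.527 in control 1, 0.690 in control 2, 0.418 in inhibitor 1 and 0.543 in inhibitor 2, and Cd28 at 0.169, 0.304, 0.208 and 0.232. The groups did not overlap for the Cd247 and Cd8a to Cd8b1 ratios and overlapped for the other 3. An exact two-sided permutation test over 2 against 2 libraries cannot go below p = 0.333, the value of both ratios without overlap (0.833 after Benjamini-Hochberg adjustment over the 5 ratios).

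**Figure D3:**
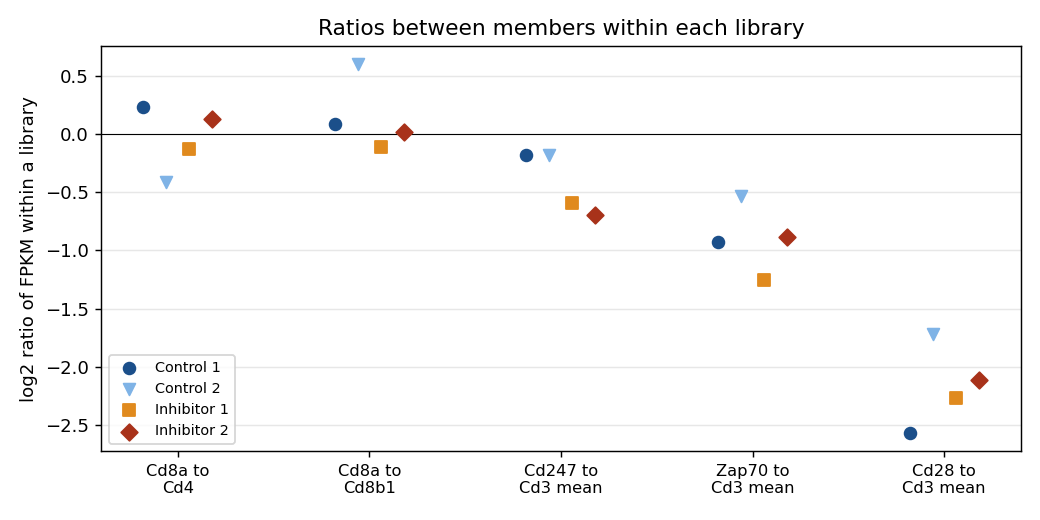
Log2 ratio of FPKM between members in each of the 4 libraries, 1 point per library, where Cd3 mean is the geometric mean of Cd3d, Cd3e and Cd3g. The control points of the Cd247 ratio coincide at -0.18 and -0.19, and its inhibitor points lie at -0.59 and -0.70.

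Genes that carry the signal on from the receptor were read from a list of 28, all found, of which 26 were tested. The median log2 fold change with both controls was 0.56. In limma 4 of the 26 were higher and 0 lower in the inhibitor libraries, against 3.48% of all rows called in either direction. These 4 were also the genes called against control 1 alone. Vav1, a signalling protein of blood cells, rose from 14.9 FPKM in control 1 and 13.1 in control 2 to 27.4 and 31.1 with the inhibitor, by 1.01 ± 0.12 on the log2 scale (SE, limma adjusted p = 0.0201). Lcp2, the adaptor SLP-76, rose from 14.1 and 14.3 to 25.2 and 29.6 FPKM. Ptprc, the phosphatase CD45 of all leukocytes, rose from 58.1 and 43.0 to 98.5 and 111.7 FPKM. These 3 are also used by leukocytes other than T cells.

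Other genes of the list were lowest in control 2 without a call. Lck, the kinase that the co-receptors bring, was at 16.6 FPKM in control 1, 5.48 in control 2, 17.8 in inhibitor 1 and 23.5 in inhibitor 2 (log2 fold change 1.01 ± 0.47, limma adjusted p = 0.325), with both inhibitor values above both controls, unlike the 9 genes. Lat, the membrane adaptor that ZAP-70 phosphorylates, was at 14.1, 2.11, 7.46 and 11.9 FPKM in that order (adjusted p = 0.698), with both inhibitor values between the controls. Control 1 was at least 2-fold above control 2 in 12 of the 26 genes tested, against 4.10% of all rows. In control 2 Cd5, Lat and Cd6 were at 14.1% to 16.5% of control 1. Against control 2 alone the list median was 1.05. Lck, Lat, Cd5 and Cd6 are named here after their values were seen. The 4 calls ended without the filter on low values, and 1, Vav1, remained with a variance estimate without a trend.

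The list of T cell identity, subsets and the naive state held 20 genes, found in 21 rows of which 18 were tested. Il2rb was the 1 gene called with both controls, against 3.48% of all rows. It encodes a receptor subunit for interleukins 2 and 15, on NK and some T cells, and was at 12.7 FPKM in control 1, 8.68 in control 2, 23.4 in inhibitor 1 and 25.7 in inhibitor 2 (log2 fold change 1.15 ± 0.19, SE, limma adjusted p = 0.0460). That call was lost under 5 of the alternatives in which all 4 libraries stayed. The list median was 0.54, and control 1 was at least 2-fold above control 2 in 11 of the 18, against 4.10% of all rows. Tcf7, a factor of naive and memory T cells, was at 22.2 FPKM in control 1, 4.66 in control 2, 12.6 in inhibitor 1 and 19.8 in inhibitor 2. Foxp3, the factor of regulatory T cells, was at 1.01, 0.191, 0.678 and 0.953 FPKM in that order and was not tested, with a mean under 1 FPKM. The list median was 1.09 against control 2 alone and -0.09 against control 1 alone. Tcf7 and Foxp3 were chosen after their values were seen.

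**Figure D4:**
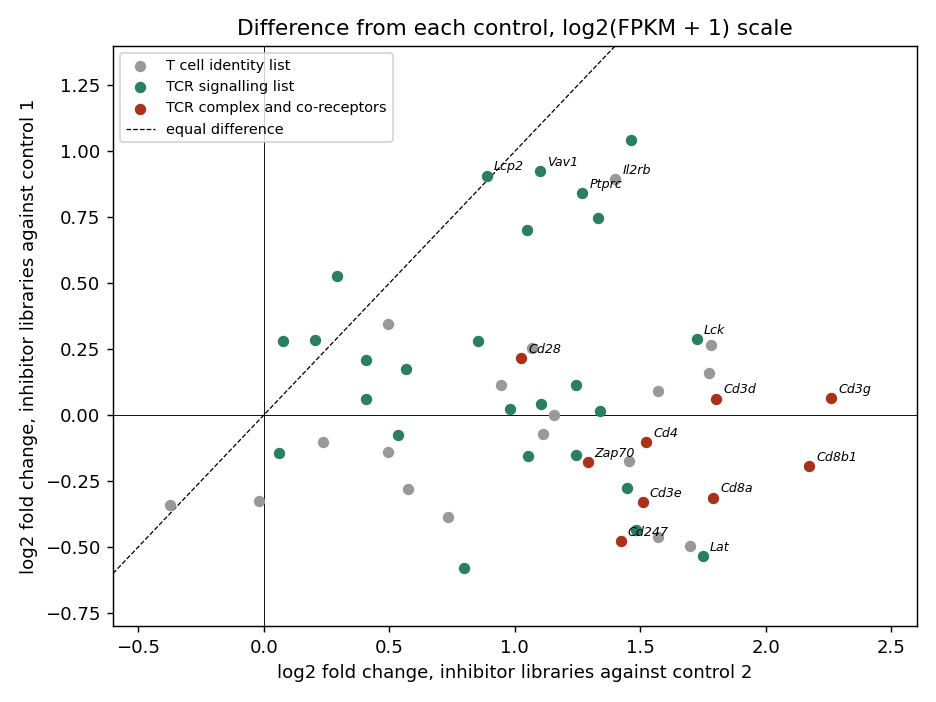
Log2 fold change of the inhibitor libraries on the log2(FPKM + 1) scale, against control 2 alone (x axis) and against control 1 alone (y axis), for the tested genes of 3 lists, with a dashed line where both are equal. The 9 receptor and co-receptor genes lie between 1.03 and 2.26 on the x axis but between -0.48 and 0.22 on the y axis, while Lcp2, Vav1 and Ptprc lie above 0.8 on both.

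Markers of other cell types were read beside the receptor genes, and their part in the differences above was not tested. The 9 genes stood at a median of 19.7% of control 1 in control 2 (11.1% to 35.5%), 68.2% in inhibitor 1 and 111.1% in inhibitor 2. The 11 tested B cell markers stood at 1.71% in control 2 (0.179% to 6.24%), 43.8% in inhibitor 1 and 38.8% in inhibitor 2. Cd79a, a signalling chain of the B cell receptor, was at 66.2 FPKM in control 1, 0.636 in control 2, 31.6 in inhibitor 1 and 25.0 in inhibitor 2, and Cd79b, its partner chain, was at 55.0, 1.86, 24.8 and 25.1 FPKM. Control 2 was lowest in 11 of 11 B cell markers, as for the receptor genes, but inhibitor 2 did not reach control 1 in any of them. The median log2 fold change of the B cell markers was 2.36 against control 2 alone and -1.19 against control 1 alone.

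Lymph node stroma and vessel markers summed to 396.2 FPKM in control 1, 164.9 in control 2, 265.3 in inhibitor 1 and 300.4 in inhibitor 2. They held 9 rows, of which Chst4 was listed at 0 in control 2 and 7 were tested. The tested rows include Cr2, which is also among the 11 B cell markers, so the lists are not fully separate. The tested markers stood at a median of 5.085% of control 1 in control 2, 58.29% in inhibitor 1 and 78.18% in inhibitor 2. Glycam1, an adhesion molecule of lymph node venules chosen after its values were seen, was at 49.1 FPKM in control 1, 0.295 in control 2, 28.6 in inhibitor 1 and 33.8 in inhibitor 2. Ccl19, a T cell zone chemokine, was at 33.7, 5.92, 22.3 and 26.3 FPKM in that order. Cxcl13 (53.5 to 60.3 FPKM) and Enpp2 (99.6 to 107.2 FPKM) were at like levels in the 4 libraries and made up most of the control 2 sum. Both were also picked after their values were seen. With both controls 0 of 11 B cell and 0 of 7 lymph node markers passed in limma, against 3.48% of all rows. None of them had an unadjusted p under 0.05. The 7 lymph node markers had median log2 fold changes of 1.94 against control 2 alone and -0.63 against control 1 alone.

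Control 2 was the lowest library in 4 of 11 NK and cytotoxic markers, 4 of 7 dendritic cell markers, 0 of 10 macrophage markers and 0 of 8 adipocyte markers, against 37.4% of rows tested. The NK and cytotoxic markers stood at a median of 117.3% of control 1 in control 2, 232.4% in inhibitor 1 and 233.7% in inhibitor 2. With both controls 6 of 11 were called higher in limma, against 3.48% of all rows called in either direction. Among them Fcer1g was at 218.2 FPKM in control 1, 264.1 in control 2, 387.1 in inhibitor 1 and 457.2 in inhibitor 2, far above the others called. Which cell types it came from was not tested. The median log2 fold change of the 11 NK and cytotoxic markers was 0.92 against control 2 alone and 1.04 against control 1 alone. Gzmb, a protease of cytotoxic granules, rose from 6.73 FPKM in control 1 and 7.89 in control 2 to 35.7 and 43.7 with the inhibitor. Ncr1, a receptor of NK cells, was at 2.67, 5.11, 8.34 and 10.4 FPKM (limma adjusted p = 0.113). Macrophage markers stood at 107.8%, 128.4% and 115.4% of control 1, with 2 of 10 higher and 1 lower, and adipocyte markers at 102.6%, 82.6% and 77.6%, with 0 of 8 called in limma and 6 at an unadjusted p under 0.05. Dendritic cell markers stood at 58.5%, 93.3% and 96.2%, with 0 of 7 called and 0 at an unadjusted p under 0.05, and Xcr1, of the dendritic cells that carry CD8 alpha in lymphoid tissue, was at 0.496 to 0.790 FPKM.

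**Figure D5:**
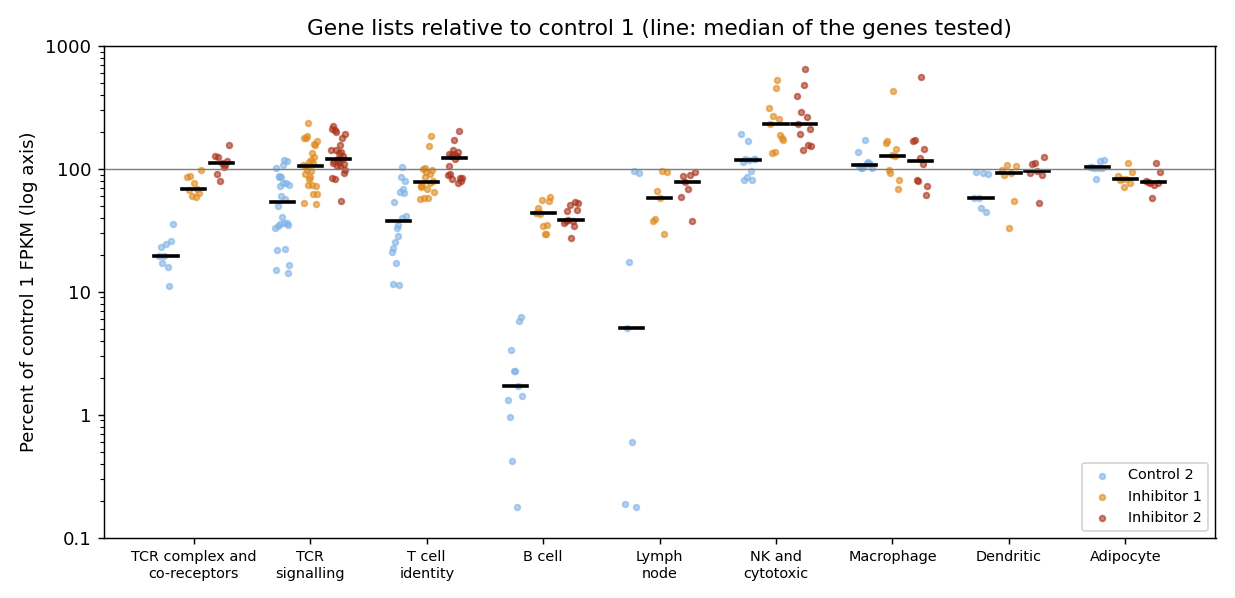
FPKM of each tested gene as a percentage of its value in control 1 (log axis), for control 2, inhibitor 1 and inhibitor 2, by gene list, with black lines at the medians. In control 2 the B cell list has a median of 1.71%, the 9 receptor and co-receptor genes 19.7% and the NK list 117.3%.

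The rows whose profile over the 4 libraries was most like the mean of Cd3d, Cd3e and Cd3g were ranked by the root mean square difference of centred log2(FPKM + 1) values. Outside the 9 genes the closest 10 of the rows tested included Dusp2, Il7r, Il21r, Lef1, Cd27, Dapl1, Cd6, Nsg2 and Ccr7, and all 10 were at differences from 0.04 to 0.17. Dusp2, a phosphatase of MAP kinases, was the closest, at 9.85 FPKM in control 1, 1.98 in control 2, 8.06 in inhibitor 1 and 10.7 in inhibitor 2. Il7r, Lef1, Cd27 and Ccr7 were on the T cell identity list and Cd6 was on the signalling list. Among the 9 genes Cd8a (0.13) and Cd4 (0.14) were as close, Zap70 (0.25) was farther and Cd28 (0.42) was the farthest, with 148 rows closer than it. Zap70 and Cd28 also had the lowest mean levels of the 9, and this scale shrinks the changes of low values. How far that set their distances was not tested. The measure rests on 4 values per gene, and with a pseudocount of 0.1 only 4 of the 10 were again among the closest 10.

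Since the treatment was aimed at miR-203, the 3' untranslated regions of the 9 genes were searched for matches to its seed, bases 2 to 8, through which a microRNA pairs with its targets. The mature mouse miR-203-3p (RefSeq, GRCm38.p6, chromosome 12 at 112130927 to 112130948, plus strand) is shown with its seed in capitals, followed by each match found in the longest annotated region of a member (GENCODE M21), with the 7 bases that pair with the seed in capitals.
miR-203-3p: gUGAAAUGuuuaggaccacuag
Cd247, from base 921 of the region: aaagatgactCATTTCAtgttaatttt
Cd8a, from base 2228 of the region: ggttaaatagCATTTCAtagtttggtt
Cd28, from base 365 of the region: cttgccagcaCATTTCAgtcatgtggt
Cd28, from base 1475 of the region: gtttaaaaaaCATTTCAttatgagtta

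Matches to the seed (CATTTCA) were thus found in 3 of 9 genes, against 17.6% of 12194 tested genes with an annotated region, and these 3 had long regions, of 2188 bases for Cd247, 2306 for Cd8a and 3574 for Cd28, against a median of 1324 over tested genes. The 6 genes without a match had regions of 234 (Zap70) to 1553 bases (Cd4). Log2 fold changes over both controls were 0.47 for Cd247, 0.74 for Cd8a and 0.62 for Cd28 with matches, inside the range of 0.56 to 1.16 of the 6 others except for Cd247, and none of the 9 passed the test. A match of letters is a description and no measure of binding, and the level of miR-203 was not analysed here.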

How the data were processed

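RNA sequencing of subcutaneous white fat gave 4 libraries, 2 per group, each from RNA of 3 pooled animals. Per the labels' protocols, Trizol served for RNA extraction and a directional kit for the libraries. Per the submitters' processing notes, the authors used TopHat2 2.0.11, Cufflinks 2.1.1 and the build mm10, and their deposited values are FPKM per gene, per the file headers. Annotation, settings and use of strand are missing from the sources used here. FPKM is relative to each library's total, so abundant transcripts can lower others.

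Samples were grouped by title. With 1 added to each FPKM before the log2, the 12345 rows that averaged 1 FPKM or more were fitted with limma 3.58.1 in R 4.3.3 (eBayes with a trend, two-sided, Benjamini-Hochberg adjustment over all rows tested, threshold 0.05), with 5.29 total degrees of freedom. Fits without a library keep 1 residual degree of freedom and pool the spread over genes. The pipeline was tested on simulated data. Ratios were tested by exact permutation with scipy 1.17.1. Coordinates come from GENCODE M21 (GRCm38), matched on the identifier without its version for the 9 genes. The 9 genes and all lists were chosen with earlier results of these data known. Named genes were the 9, up to 4 called genes per list with the smallest p, 3 defining markers of each other cell type and the 10 most alike; those no result turns on are left out, a few are not reported here, and others are marked as chosen later. Alternatives were a pseudocount of 0.1, no filter, 3 scalings, a replicate block, no variance trend and leaving out each library. Titles number the libraries 1 and 2 in both groups, and nothing says that a number marks a shared batch.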

Additional observations from a re-analysis of the deposited data

How the results depend on the processing

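With all 4 libraries in the fit, the count of receptor and co-receptor genes called stayed at 0 of 9 under each alternative run, and their median log2 fold change stayed between 0.60 and 0.95. Leaving out 1 library in turn moved the calls over all rows between 0 and 785, the members called between 0 and 7, the member median between -0.18 and 1.52, the signalling genes called between 0 and 11 and the identity genes called between 0 and 7 (list median -0.086 to 1.09). The lowest medians came without control 2 and the highest without control 1. Without inhibitor 1 and without inhibitor 2 the 0 calls over all rows stood beside 1693 and 1281 rows at an unadjusted limma p under 0.05, and each of those fits takes its residual spread from the controls alone. Per gene these 4 fits gave log2 fold changes of -0.33 to 1.51 for Cd3e, -0.48 to 1.42 for Cd247, -0.10 to 1.52 for Cd4, -0.31 to 1.79 for Cd8a, -0.19 to 2.17 for Cd8b1 and -0.18 to 1.29 for Zap70. Cd3d, Cd3g and Cd28 kept a positive sign. Calls over all rows fell from 430 to 132 with no filter and 226 without a variance trend. Signalling calls fell from 4 to 0 and 1 under these settings, with 8 and 7 at an unadjusted p under 0.05. The 1 identity call became 0 with no filter, upper quartile scaling, the total without mitochondrially encoded genes, the replicate block and no variance trend, with 1 to 3 at an unadjusted p under 0.05. The cause of these losses was not tested. Deviations of same-numbered libraries from their group means correlated at -0.00581 over 12345 rows, so the numbers give no sign of pairing, and with the replicate block 354 rows, 0 of the 9 genes, 3 signalling genes and 0 identity genes were called. The read number behind each FPKM is unknown, which limits what low values such as those of control 2 can show.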
